A study of Mus musculus with 8 samples.

Results

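The genes described are 29 autosomal genes of cholesterol and fatty acid synthesis, chosen by name from known pathway membership, out of 46078 gene IDs in the count tables. They comprise 16 enzymes of the sterol branch, 8 enzymes of the fatty acid branch and 5 genes that control or serve these pathways. All 29 were found in the tables. Allele-resolved RNA-seq was performed in clonal female mouse embryonic fibroblast (MEF) lines labelled as a 129S1/SvImJ x CAST/EiJ cross, in 8 samples that form 4 groups of 2. The methods of the study give the 129 parent as 129Sv4/Jae, and 129S1/SvImJ is the reference by which alleles were told apart. WT cells carry a silent X chromosome of 129 origin (Xi) and an active X chromosome of CAST origin, and XiΔXist cells are a separate line in which the gene for the noncoding RNA Xist is deleted on the Xi. The other groups are XiΔXist cells that received a lentiviral control hairpin of scrambled sequence (shSCR) or lentiviral hairpins that target mRNA of the zinc finger factor YY1 (shYY1), followed by puromycin selection. Both hairpin groups therefore lack Xist on the Xi, and the shYY1 group mixes 2 different hairpins. The comparisons ask how the genes differ between the WT and XiΔXist lines and how they differ between shSCR and shYY1 within the XiΔXist background. Since each line is a clone, the deletion and other differences between the clones cannot be told apart.

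Cholesterol is built from acetyl-CoA through mevalonate, squalene and lanosterol, and fatty acids are built from the same acetyl-CoA by carboxylation, chain synthesis, elongation and desaturation. Both pathways are controlled by the sterol regulatory element-binding proteins (SREBPs), transcription factors held in the membrane of the endoplasmic reticulum. When sterols are scarce, SCAP escorts the SREBPs to the Golgi, where they are cut and released to the nucleus, and INSIG proteins retain the complex when sterols are plentiful. Fibroblasts in culture make their own sterols and also take them up from serum.

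The promoters of 4 members are shown as examples. Hmgcs1 and Srebf2 hold a motif of the pathway or of YY1, and differences of Hsd17b7 and Fasn are described below. Some members with larger changes in level, such as Mvk and Scap, are not shown. The sequences run from 250 bases before to 50 bases after the annotated start and were taken from RefSeq (GRCm38.p6). Such a window was found for 22 of the 29 members, and the members with none were Fads1, Fdft1, Fdps, Scd1, Scd2, Sqle and Stard4. Capitals mark matches, on either strand, to the sterol element TCACNCCAC or its short form TCACNCCA, to CCAAT, to the E-box CACGTG and to the YY1 motif AANATGGCG.
Hmgcs1, chr13:119690101-119690400, plus strand: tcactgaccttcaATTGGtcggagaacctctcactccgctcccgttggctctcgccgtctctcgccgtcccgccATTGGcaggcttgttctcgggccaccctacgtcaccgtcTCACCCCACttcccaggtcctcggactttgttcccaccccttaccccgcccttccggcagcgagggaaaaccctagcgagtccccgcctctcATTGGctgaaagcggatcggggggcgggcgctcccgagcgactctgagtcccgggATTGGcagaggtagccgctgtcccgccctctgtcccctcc
Srebf2, chr15:82147019-82147318, plus strand: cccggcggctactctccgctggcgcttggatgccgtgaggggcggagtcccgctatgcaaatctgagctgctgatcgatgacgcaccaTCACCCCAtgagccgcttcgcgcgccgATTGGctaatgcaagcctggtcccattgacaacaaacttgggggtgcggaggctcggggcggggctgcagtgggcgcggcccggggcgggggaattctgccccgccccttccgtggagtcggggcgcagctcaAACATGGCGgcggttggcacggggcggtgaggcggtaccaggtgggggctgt
Hsd17b7, chr1:169969156-169969455, minus strand: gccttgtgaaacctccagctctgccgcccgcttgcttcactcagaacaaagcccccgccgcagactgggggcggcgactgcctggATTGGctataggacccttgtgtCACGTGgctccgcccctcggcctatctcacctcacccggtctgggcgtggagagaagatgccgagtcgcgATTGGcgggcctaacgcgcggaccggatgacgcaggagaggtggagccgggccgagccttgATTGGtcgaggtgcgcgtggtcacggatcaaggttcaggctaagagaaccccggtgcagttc
Fasn, chr11:120824498-120824797, minus strand: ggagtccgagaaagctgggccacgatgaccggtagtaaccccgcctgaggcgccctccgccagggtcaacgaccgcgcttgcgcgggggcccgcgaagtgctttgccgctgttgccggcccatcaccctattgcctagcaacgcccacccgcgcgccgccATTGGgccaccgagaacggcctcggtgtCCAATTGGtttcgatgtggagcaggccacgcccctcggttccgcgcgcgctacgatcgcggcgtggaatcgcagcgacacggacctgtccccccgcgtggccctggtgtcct

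The sterol element TCACNCCAC was found in 1 of the 22 members, Hmgcs1, and in 1.255% of 31396 autosomal promoter windows of the same length. The short form TCACNCCA was added after the member promoters had been read, because the Srebf2 promoter holds it but misses the last letter of the longer form. It was found in 3 members, Hmgcs1, Msmo1 and Srebf2, against 4.453% of all windows, and since it was chosen on these sequences that count supports nothing. Every match of the longer form is also a match of the short form. Some members have several annotated starts, so that the 22 members have 28 windows. CCAAT was found in 17 members and in 18 of these windows (64.3%), against 37.3% of all windows, and CACGTG in 5 members (Dhcr7, Hsd17b7, Insig1, Sc5d and Scap) and 6 windows (21.4%), against 7.144%. The YY1 motif was found in 1 member, Srebf2, where it starts 2 bases before the annotated start, against 2.354% of windows. A match describes letters in the window and is no evidence of binding.

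The deposited tables hold 1 column of counts per allele and group, in which the authors had pooled the replicates. Each group is therefore a single pool, no difference below has a replicate check, and intervals describe counting error alone. PCR copies of a molecule are counted as separate reads, so that intervals and p-values may be too narrow even for counting error. Reads assigned to an autosomal allele numbered 18745483 (WT), 21342574 (XiΔXist), 1470870 (shSCR) and 1472083 (shYY1). Levels are given as CPM, the reads of a gene scaled to an equal total of these autosomal reads, and a floor of 3 reads corresponds in the same order to 0.160, 0.141, 2.04 and 2.04 CPM. Mitochondrial genes took 20.2% and 22.3% of all allelic reads in WT and XiΔXist and 36.7% and 39.5% in shSCR and shYY1. As a check of the labels, the levels of Xist in the same order were 1889, 0.984, 0 and 4.08 CPM, and those of Yy1 were 82.0, 79.5, 161 and 62.5 CPM. The fibroblast markers summed to 6588, 4834, 7364 and 8588 CPM, with all 8 read in WT and in XiΔXist. Dcn and Lum were at 0 in shSCR, and Lum at 0 with Dcn at 0.679 CPM in shYY1. The adipocyte markers Adipoq, Plin1 and Cidec were at 0 in every pool. Of the other 3 adipocyte markers, Lpl, lipoprotein lipase, was at 210, 60.0, 56.4 and 44.2 CPM, Fabp4 at 0.854, 4.59, 0.680 and 0 CPM and Pparg at 1.65, 0.328, 8.84 and 8.83 CPM. Lpl was called lower and Fabp4 higher in XiΔXist, at log2 changes of -1.80 and 2.39 by the rule given below, and their part in the results was not tested. The epithelial, endothelial and leukocyte marker lists each summed to at most 4.08 CPM.

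**Figure D1:**
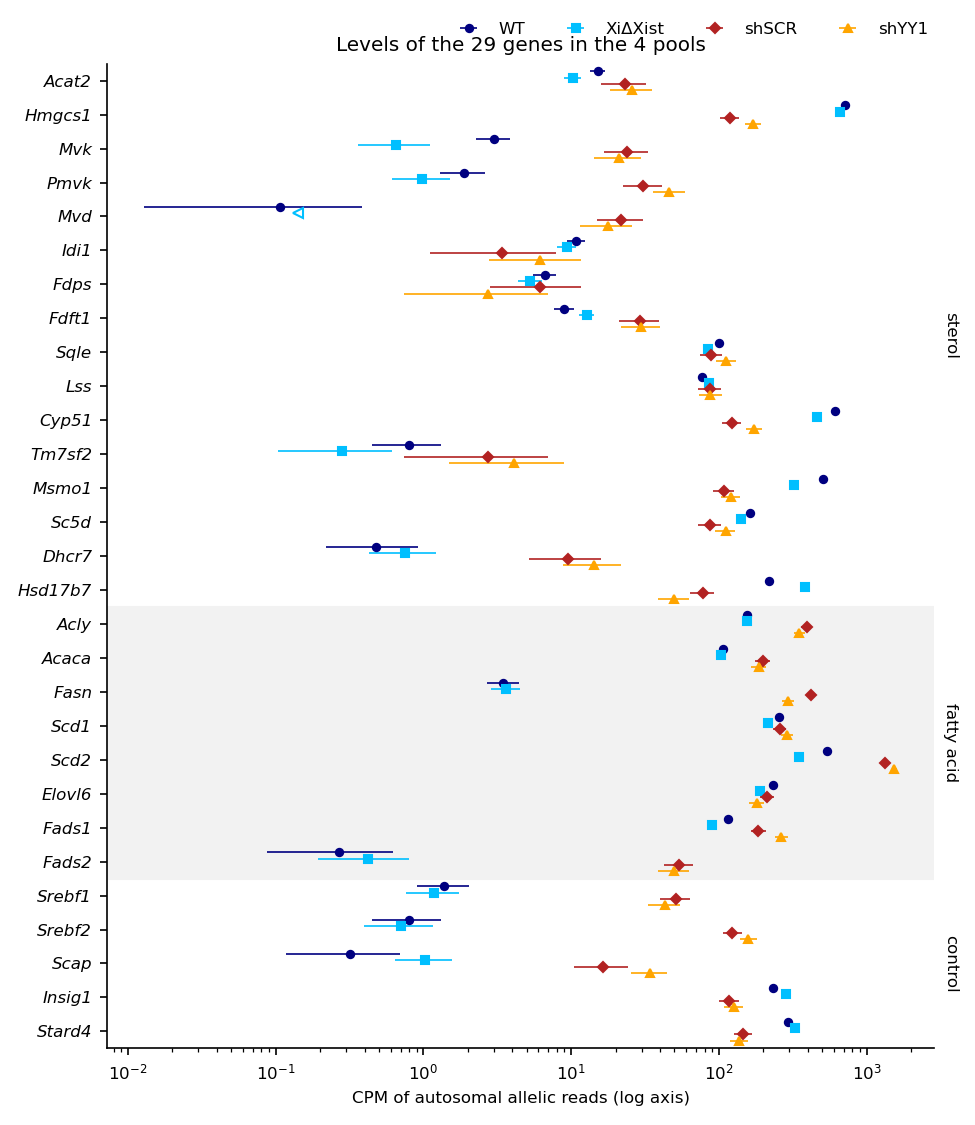
Level of each gene on a log axis, in CPM of autosomal allelic reads, in the 4 pools, with exact 95% counting intervals and the 3 branches separated by shading. An open triangle marks Mvd in XiΔXist, which had no read and is drawn at the floor of 3 reads, 0.141 CPM. Levels of a gene can be compared between WT and XiΔXist or between shSCR and shYY1. They cannot be compared across these pairs, whose read lengths differ. Levels cannot be compared between genes, since CPM does not correct for length or for strain differences per gene.

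A gene was called changed in level when it differed by at least 1.5-fold and the exact 95% counting interval of the ratio left out no change, among autosomal genes with at least 50 reads in the pools compared. Between WT and XiΔXist, 23 members had enough reads. Of these, 1 was called higher (Hsd17b7) and 4 were called lower (Mvk, Pmvk, Msmo1 and Scd2), while 8.68% and 15.7% of 10315 autosomal genes were called higher and lower. The calls of Msmo1 and Scd2 ended with median-of-ratios scaling and with centring by GC content, that of Scd2 also with CAST reads only, and that of Pmvk with a pseudocount of 1 CPM and with GC centring. Most tested members of both branches were lower in XiΔXist, though not always beyond counting error. So were most autosomal genes, of which 57.8% lay below the log2 change of Acly, -0.01. With median-of-ratios scaling the log2 changes of Acly and Acaca turned to 0.08 and 0.04. Because the samples are bulk, fewer cells of a type and less RNA per cell cannot be told apart.

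In the early sterol branch, Hmgcs1, which makes HMG-CoA, was read at 714 and 659 CPM in WT and XiΔXist and at 118 and 171 CPM in shSCR and shYY1. Its log2 change from WT to XiΔXist was -0.12 (95% counting interval -0.15 to -0.08), which leaves out no change but is far under 1.5-fold. The alleles of Hmgcs1 differed in direction, at 0.25 with 129 reads only and -0.45 with CAST reads only. Mvk, mevalonate kinase, was read at 2.99 and 0.656 CPM in WT and XiΔXist, a log2 change of -2.15 (-3.15 to -1.32), and at 23.8 and 21.1 CPM in shSCR and shYY1. The low level in both untreated pools means that this call rests on 56 and 14 reads. Pmvk, the next kinase of the pathway, was read at 1.87 and 0.984 CPM, a log2 change of -0.91 (-1.78 to -0.10), on 35 and 21 reads. Acat2, which joins acetyl-CoA units in the cytosol, was read at 15.2 and 10.3 CPM, a log2 change of -0.56 (-0.82 to -0.30) that just missed the 1.5-fold limit. Acat2 has a near-identical copy, Acat3, and reads of the pair may be exchanged. Idi1 and Fdps, which make and join isoprene units, had intervals that included no change, at log2 changes of -0.22 and -0.33.

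The later sterol enzymes divided. Msmo1, a C4 demethylation enzyme, was read at 502 CPM in WT and 321 in XiΔXist, a log2 change of -0.65 (-0.69 to -0.60). Cyp51, the lanosterol demethylase, which overlaps Akap9, was read at 612 and 460 CPM, a log2 change of -0.41. Both steps were lower in XiΔXist. Hsd17b7, a ketoreductase that works beside Msmo1, was read at 220 CPM in WT and 380 in XiΔXist, a log2 change of 0.79 (0.74 to 0.85). It was the single member called higher, and nearly all of its reads came from the 129 allele in both pools. Fdft1, squalene synthase, which overlaps Ctsb, was read at 8.96 and 12.7 CPM, a log2 change of 0.50 (0.22 to 0.79), and Lss, lanosterol synthase, at 77.3 and 85.6 CPM, a log2 change of 0.15. Sqle, squalene epoxidase, and Sc5d, a desaturase, were lower by counting, at log2 changes of -0.25 and -0.19. The alleles of Sc5d differed in direction, at 0.38 with 129 reads only and -0.76 with CAST reads only. Mvd, Tm7sf2 and Dhcr7 had too few reads in WT and XiΔXist to be compared, with at most 0.800 CPM in either.

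In the fatty acid branch, Scd2, a stearoyl-CoA desaturase, was read at 541 CPM in WT and 349 in XiΔXist, a log2 change of -0.63 (-0.67 to -0.59). Its neighbour on the chromosome, Scd1, was read at 255 and 214 CPM, a log2 change of -0.25. Elovl6, an elongase, and Fads1, a desaturase of polyunsaturated fatty acids, had log2 changes of -0.30 and -0.36, and the intervals of Scd1, Elovl6 and Fads1 left out no change. These 4 desaturases and elongases were thus the fatty acid members lower by counting. Upstream of them, Acly, which makes cytosolic acetyl-CoA, and Acaca, acetyl-CoA carboxylase, differed little in total. Acly was read at 156 and 154 CPM and Acaca at 107 and 103 CPM. With 129 reads only and CAST reads only, the log2 changes were -0.13 and 0.11 for Acly and -0.24 and 0.17 for Acaca. Fasn, fatty acid synthase, was read at 3.47 and 3.61 CPM, on 65 and 77 reads, and its interval ran from -0.44 to 0.56. Fads2, a desaturase, was too low to be compared, at 0.267 and 0.422 CPM. Part of the Acaca transcript has a near-identical processed pseudogene, Gm5182.

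Of the control genes, Insig1 was read at 231 CPM in WT and 284 in XiΔXist, a log2 change of 0.30, and Stard4, a sterol carrier, at 294 and 327 CPM, a log2 change of 0.15. Both intervals left out no change, and neither gene reached 1.5-fold in total. With 129 reads only and CAST reads only, the log2 changes were 0.02 and 1.08 for Insig1 and -0.10 and 0.42 for Stard4. Srebf1, which favours fatty acid genes, was read at 1.39 and 1.17 CPM, and its interval ran from -1.10 to 0.61. Srebf2 and Scap were too low to be compared between these pools, at 0.800 and 0.703 CPM and at 0.320 and 1.03 CPM.

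**Figure D2:**
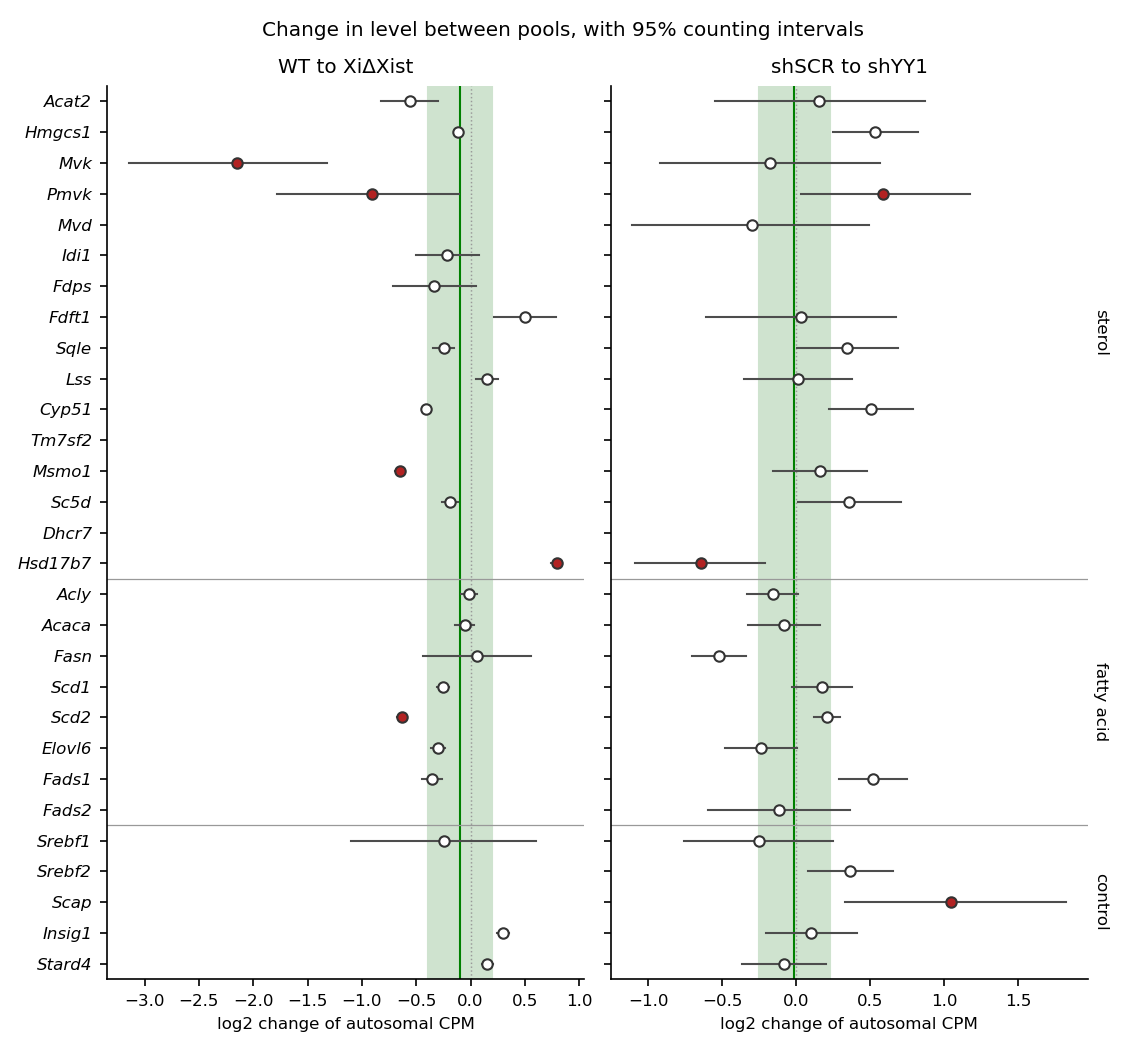
Log2 change of each gene with its 95% counting interval from WT to XiΔXist (left) and from shSCR to shYY1 (right), with called genes filled and the median and quartiles of all autosomal genes as a green line and band; members with under 50 reads are left blank. Hsd17b7 lies at 0.79 on the left and -0.64 on the right, and most other members lie near the green band.

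By branch, the median log2 change from WT to XiΔXist was -0.25 over 13 sterol genes, of which 3 were above and 10 below 0, and -0.25 over 7 fatty acid genes, of which 1 was above and 6 below 0. The median over all autosomal genes was -0.09, with quartiles at -0.40 and 0.20, so that most of these were below 0 as well. With CAST reads only the fatty acid median was 0.11 over 5 genes, so its sign depends on the reads used. The 3 control genes had a median of 0.15, which was -0.04 over 2 genes with 129 reads only. Among the fibroblast markers, Dcn, Thy1 and Col3a1 were called higher in XiΔXist, at log2 changes of 1.65, 1.57 and 0.84, and Col1a1, Col1a2 and Pdgfra lower, at -1.20, -1.05 and -0.91, and the part of this in the branch values was not tested. By the counting interval alone, without a fold limit, 5 members were higher and 12 lower, against 24.2% and 36.4% of all autosomal genes.

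Between shSCR and shYY1 the branches did not share a direction in their medians. The sterol genes had a median log2 change of 0.16 over 12 tested, 9 above and 3 below 0, and the fatty acid genes -0.10 over 8 tested, 3 above and 5 below 0, beside -0.02 for all autosomal genes with quartiles at -0.25 and 0.23. The difference between the branches was not tested. Of 25 members with enough reads, 2 were called higher (Pmvk and Scap) and 1 lower (Hsd17b7), against 6.09% and 6.04% of 7979 autosomal genes. By the counting interval alone, 9 members were higher and 2 lower, against 12.8% and 13.3% of all autosomal genes.

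In the sterol branch, the members higher in shYY1 by counting were Hmgcs1, Pmvk, Sqle, Cyp51 and Sc5d. Hmgcs1 had a log2 change of 0.53 (0.25 to 0.82), and Cyp51, at 122 CPM in shSCR and 173 in shYY1, had 0.50 (0.22 to 0.79). Pmvk was read at 30.6 and 46.2 CPM, a log2 change of 0.59 (0.03 to 1.17) that barely passed the limit and lost its call with scaling by all allelic reads or a pseudocount of 1 CPM. Sqle, at 88.4 and 112 CPM, and Sc5d, at 86.3 and 111 CPM, had log2 changes of 0.34 and 0.36. Hsd17b7 went the other way, from 77.5 to 49.6 CPM, a log2 change of -0.64 (-1.09 to -0.21). Lss, at 87.0 and 87.6 CPM, and Fdft1, at 29.2 and 29.9 CPM, were nearly level, and Msmo1 and Acat2 had intervals that included no change at 0.16 each. Mvk, at 23.8 and 21.1 CPM, and Mvd, at 21.8 and 17.7 CPM, had log2 changes of -0.17 and -0.30. Their intervals also included no change. Idi1, Fdps, Tm7sf2 and Dhcr7 had too few reads.

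In the fatty acid branch, Fasn was read at 420 CPM in shSCR and 293 in shYY1, a log2 change of -0.52 (-0.70 to -0.34), short of 1.5-fold. Fads1 was read at 185 and 265 CPM, a log2 change of 0.52 (0.29 to 0.75), and Scd2 at 1327 and 1535 CPM, a log2 change of 0.21 (0.12 to 0.30). The synthase was thus lower and these desaturases higher by counting. Acly, Acaca, Scd1, Elovl6 and Fads2 had intervals that included no change, at log2 changes from -0.24 to 0.17.

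Among the control genes, Scap was read at 16.3 CPM in shSCR and 34.0 in shYY1, a log2 change of 1.04 (0.33 to 1.82), on 24 and 50 reads. Srebf2, the SREBP that favours sterol genes and the member with the YY1 motif shown above, was read at 123 and 158 CPM, a log2 change of 0.36 (0.08 to 0.65). Srebf1, at 51.0 and 42.8 CPM, Insig1, at 118 and 126, and Stard4, at 145 and 137, had intervals that included no change. Of the 21 members tested in both comparisons, which share no pool, 8 had the same sign and 13 the opposite sign. The same count was not made over all autosomal genes, so nothing about these members is read from it.

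Levels in XiΔXist and shSCR are given side by side only, since the hairpin libraries were read as longer pairs than the untreated ones. Treatment, read length and other differences between these pools cannot be told apart. For example, the median 129 share of the genes around Fdft1 was 50.9% in XiΔXist and 0% in shSCR, and Dcn was at 103 and 0 CPM. The gap between these pools moved with the GC content of the transcript. Across protein-coding genes the median log2 difference, shSCR over XiΔXist, ran from -1.34 in the tenth of genes lowest in GC to 5.15 in the tenth highest, with a Spearman correlation across genes of 0.71, given as a description. The 8 members with a GC content of at least 54%, a limit set after the values were seen (Fads2, Mvk, Pmvk, Fasn, Srebf2, Srebf1, Mvd and Scap), ranged from 0.107 to 3.47 CPM in WT and from 0 to 3.61 in XiΔXist, but from 16.3 to 420 in shSCR and from 17.7 to 293 in shYY1. Fasn alone went from 3.61 CPM in XiΔXist to 420 in shSCR. Of the 7 members with a GC content under 46%, 6 were read at a lower level in shSCR than in XiΔXist and 1 at a higher level, from Hmgcs1 at 659 and 118 CPM to Sc5d at 142 and 86.3 CPM and Elovl6 at 189 and 212 CPM. For GC-rich members in the untreated pools, low expression and poor recovery of the transcript cannot be told apart. Within each comparison above the relation was weak, with Spearman correlations across genes of -0.07 from WT to XiΔXist and -0.15 from shSCR to shYY1.

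**Figure D3:**
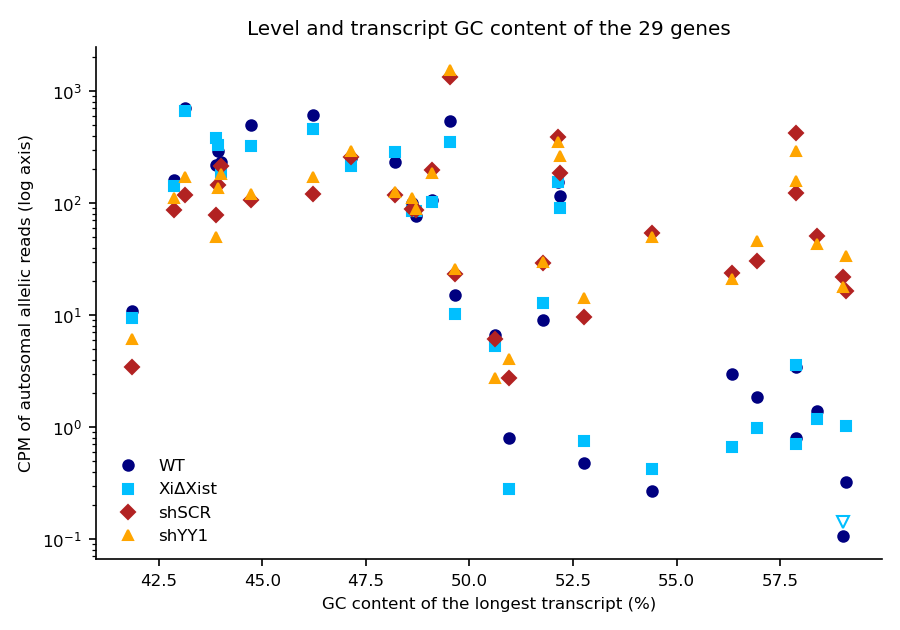
Level of the 29 genes in CPM (log axis) against the GC content of the longest transcript in percent, with 1 symbol per pool; the open triangle is Mvd in XiΔXist at the floor of 3 reads. Above 54% GC the WT and XiΔXist points lie at or below 3.61 CPM and the hairpin points at or above 16.3 CPM.

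The 129 share, the percentage of a gene's allelic reads that came from the 129 allele, separated the members into 2 kinds. In 14 members (Acat2, Pmvk, Idi1, Fdps, Sqle, Tm7sf2, Dhcr7, Hsd17b7, Scd1, Scd2, Fads1, Fads2, Srebf2 and Scap) it was at least 95% in every pool. Genes within 5 Mb of them also had median shares near 100%, and a shift between alleles could hardly be seen in them. The other 15 members were read from both alleles in at least 1 pool. Fdft1, on chromosome 14, had a 129 share of 45.8% in WT and 39.5% in XiΔXist, but no 129 read among 43 in shSCR and 44 in shYY1, with Wilson 95% upper bounds of 8.20% and 8.03% (3 reads would be 6.98% and 6.82%). The median of its neighbours was 62.0%, 50.9%, 0% and 0%, so that the missing allele was shared with the region.

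From WT to XiΔXist, 2 of 24 members were called higher in 129 share (Hmgcs1 and Sc5d) and 5 lower (Acaca, Acly, Stard4, Cyp51 and Insig1), where a call needed a change of at least 3 points and an adjusted p under 0.05 (Fisher's exact test, two-sided, adjusted over all autosomal genes by the Benjamini-Hochberg method). Of the 24, 14 are read from both alleles and 10 are at 95% or more in every pool, and all 7 calls fell among the 14. Of 11409 autosomal genes, which include genes of both kinds, 6.81% were called higher and 12.1% lower. The test compares pools of libraries and not conditions. Sc5d went from 40.6% to 60.2% (adjusted p = 7.9e-51, Fisher's exact test), while the median of its neighbours went from 38.3% to 54.5%. Hmgcs1 went from 41.9% to 54.1% (adjusted p = 1.11e-88, Fisher's exact test), with neighbours from 40.8% to 45.6%. Insig1 went from 80.4% to 66.3% (adjusted p = 5.88e-56, Fisher's exact test), with neighbours from 66.3% to 53.3%. These 3 shares moved in the direction of the surrounding genes. Stard4 went from 56.0% to 47.1% (adjusted p = 1.53e-21, Fisher's exact test) while its neighbours were at 53.0% and 53.8%. Among the 7 called members, the change less that of the neighbours was at least 3 points up in 4 (Acly, Hmgcs1, Cyp51 and Sc5d). It was at least 3 points down in 2 (Acaca and Stard4), and Acly and Cyp51 turned direction. The p-values tested the unsubtracted shares, so that the subtracted changes have no test or interval of their own. Acly, at 3.01 points, and Acaca, at -3.06 points, passed the limit narrowly. Srebf1 was at 80.8% of 26 reads and 48.0% of 25 reads, which was not called (adjusted p = 0.0910, Fisher's exact test).

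**Figure D4:**
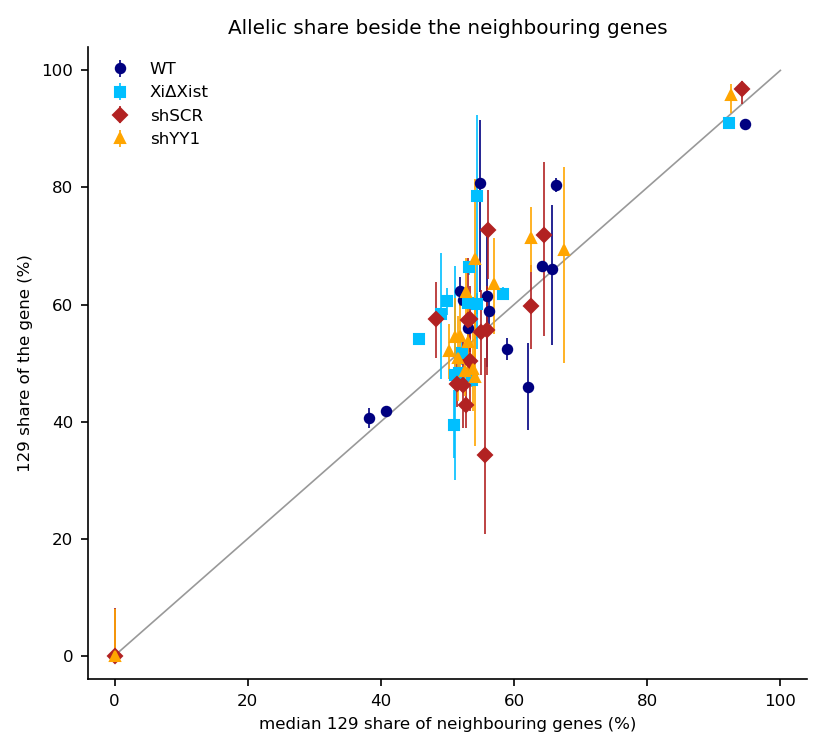
The 129 share in percent of the 15 members read from both alleles, with Wilson 95% intervals, against the median 129 share in percent of other genes within 5 Mb, for members with at least 10 reads in a pool; the line marks equal shares. Fdft1 lies at 0% with its neighbours in both hairpin pools, and Elovl6 lies near its neighbours above 90%.

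From shSCR to shYY1, none of 26 members, of which 15 are read from both alleles, was called in either direction by the adjusted Fisher's exact test, against 0.658% of 9720 autosomal genes called higher and 0.545% called lower. At an unadjusted p under 0.05 there were 2, Hmgcs1 and Mvk. Hmgcs1 had a 129 share of 59.8% in shSCR and 71.4% in shYY1 (adjusted p = 0.275, Fisher's exact test), and Mvk 34.3% of 35 reads and 67.7% of 31 reads (adjusted p = 0.248, Fisher's exact test).

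Genes of the pathway on the X chromosome were read almost entirely from the active X. Nsdhl, which works with Msmo1 and Hsd17b7, had no Xi read among 1170 in WT and 1405 in XiΔXist, where 3 reads would be 0.256% and 0.214%. It had 1 Xi read of 41 in shSCR and none of 49 in shYY1, where 3 reads would be 6.12%. Ebp, a sterol isomerase, had 2 Xi reads of 56 in WT, none of 62 in XiΔXist, none of 35 in shSCR and 2 of 58 in shYY1, and 3 reads would be 4.84% and 8.57% in the pools with none. Mbtps2, a protease that releases SREBPs, had 2 Xi reads of 1830, 1 of 2685, none of 54 and none of 61, and 3 reads would be 5.56% and 4.92% in the pools with none. It overlaps Yy2, so that its reads are uncertain.

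Lists of related genes are given by their counts, beside 8.68% higher and 15.7% lower of all autosomal genes in XiΔXist and 6.09% and 6.04% in shYY1. Of other sterol genes, none of 5 was called from WT to XiΔXist and none of 6 from shSCR to shYY1. Among genes of sterol uptake and other SREBP targets, 2 of 8 were called higher in XiΔXist, Acss2 at a log2 change of 0.91 and Lpin1 at 0.69, and none of 7 was called in shYY1. Of 7 genes that process SREBPs, none was called in shYY1.

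In a list of LXR, the receptor that responds to excess sterol, and its targets, Abcg1 was called higher in XiΔXist, at a log2 change of 2.47, as 1 of 3 tested. In shYY1 2 of 4 were called higher, where the 4 are 3 targets and the receptor gene Nr1h2, against 6.09% of autosomal genes: the cholesterol exporter Abca1 went from 29.2 to 73.4 CPM (log2 change 1.32, 0.81 to 1.87) and the lipoprotein gene Apoe from 12.2 to 33.3 CPM (1.42, 0.64 to 2.31). Of other fatty acid synthesis genes, the elongase Elovl5 was called lower in XiΔXist at -0.91 among 10 tested, and the elongase Elovl1 higher in shYY1 at 1.33 among 10 tested. In fatty acid oxidation, Cpt1a at 1.85 and Ppard at 1.51 were called higher and Hadha lower at -0.72 in XiΔXist among 8 tested, and none of 8 was called in shYY1. Of 6 fibroblast markers tested in shYY1, Col3a1 and Col1a2 were called higher, at 1.30 and 0.63, and Col1a1 and Thy1 were at 0.51 and 0.32. Vim and Pdgfra went the other way, at -0.13 and -0.21, and the interval of Vim left out no change. The part of these markers in the values above was not tested.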

How the data were processed

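The deposited values are raw counts of allelic reads per Ensembl gene, not normalized. According to the published methods, replicates were pooled by the authors, who aligned reads with TopHat to a mouse genome masked at positions that differ between the strains, removed poorly aligned reads, assigned the rest with SNPsplit and counted exons with featureCounts 1.6.3. The annotation release and use of strand were not given in the sources used here, so overlapping, antisense and near-identical genes are uncertain. Reads that cover no strain difference are not counted.

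The members and lists were chosen with earlier results of these data known. All members are named, with the pathway genes chosen by name, Xist and Yy1, and of each pathway list the 2 genes with the largest called change. Some genes that this rule names are not reported here. Fibroblast markers tested in shYY1 were named after their values were seen. Positions and transcript GC content came from GENCODE M21 (GRCm38). Counts of both alleles were summed and scaled to autosomal allelic reads (CPM), and log2 changes used 0.5 added reads. Intervals of a ratio are exact conditional binomial, those of a share Wilson, both at 95%. No model was fitted, since pooling leaves no replicates. Fisher's exact tests needed at least 10 reads in both pools. Neighbours are other genes within 5 Mb with at least 20 reads. Near-identical copies were sought with blastn 2.17.0 (90% identity over 50% of the transcript). The promoter search began with TCACNCCAC, and TCACNCCA was added after the sequences had been read. Scripts used Python 3.11.15, numpy 2.4.6, pandas 2.3.3, scipy 1.17.1 and matplotlib 3.10.9, and were tested on simulated data. Alternatives covered scaling, pseudocount, read minimum, allele, overlap, fold limit and, chosen after seeing the data, GC content.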

Additional observations from a re-analysis of the deposited data

How the results depend on the processing

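No paired analysis was possible because the replicates of a group are pooled in 1 column per allele, and for the same reason no replicate could be left out. The fatty acid median from WT to XiΔXist, -0.25, was -0.16 with median-of-ratios scaling, -0.15 with no filter, 0.11 with CAST reads only (5 genes), -0.10 without overlapping genes (2 genes) and -0.17 centred by GC content, an alternative chosen after seeing the data. The cause was not tested. The sterol medians and the fatty acid median from shSCR to shYY1 kept their sign but not their size. The sterol median from WT to XiΔXist ranged from -0.31 (CAST reads only) to -0.15. From shSCR to shYY1 it ranged from 0.10 (scaling by all allelic reads) to 0.35 (at least 200 reads). The fatty acid median from shSCR to shYY1 ranged from -0.31 (CAST reads only, 3 genes) to -0.05 (129 reads only). The control median from WT to XiΔXist, 0.15, changed sign. It was -0.04 with 129 reads only (2 genes) and 0.75 with CAST reads only (2 genes).

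From WT to XiΔXist, the 1 member called higher became 2 with median-of-ratios scaling, no filter, CAST reads only or GC centring, and 0 at 2-fold. The 4 called lower became 2 with median-of-ratios scaling, at least 200 reads or CAST reads only, and 1 at 2-fold or with GC centring. That count became 3 with a pseudocount of 1 CPM, 129 reads only or no overlapping genes, and 5 with scaling by all allelic reads or no filter. Of the autosomal genes tested, those called higher and lower were 612 and 933 of 7529 with at least 200 reads (19 members tested). They were 746 and 764 of 5349 with CAST reads only (13 members) and 831 and 1650 of 9423 with 129 reads only (21 members). They were 438 and 681 of 4636 without overlapping genes (13 members) and 1207 and 2520 of 19325 with no filter (29 members). At 2-fold they were 447 and 827 of 10315 (23 members). In shYY1, the 2 called higher became 1 with scaling by all allelic reads, a pseudocount of 1 CPM, no overlapping genes or 2-fold. That count became 0 with at least 200 reads or CAST reads only, and 4 with 129 reads only. Of the autosomal genes tested, those called higher and lower were 446 and 453 of 6698 with 129 reads only (22 members tested). They were 230 and 228 of 3262 with CAST reads only (12 members) and 95 and 98 of 3745 with at least 200 reads (16 members). Without overlapping genes they were 220 and 226 of 3826 (13 members), and at 2-fold 142 and 96 of 7979 (25 members). The 1 member called lower became 0 at 2-fold, and 0 with at least 200 reads, where Hsd17b7 had too few reads to be tested. Called members can thus leave these counts untested. The minimum of 200 reads left out Mvk and Pmvk from WT to XiΔXist, and Pmvk and Scap from shSCR to shYY1. Mvk was also left out with 129 reads only. CAST reads only left out Mvk, Pmvk and Scap, and leaving out overlapping genes removed Scd2 and Scap. For the 129 share, the 5 called lower became 1 at a change of 10 points, 2 less the neighbouring genes and 2 without overlapping genes. The 2 called higher became 4 less the neighbouring genes. Counts less the neighbouring genes kept the p-values of the unsubtracted shares. Over all autosomal genes, 895 were called higher and 1622 lower in XiΔXist, against 1111 and 1326 with median-of-ratios scaling, and 486 and 482 in shYY1, against 364 and 627 with scaling by all allelic reads. The letters of the sterol element also matter: 1 member held TCACNCCAC and 3 held TCACNCCA, the form added after reading the promoters.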
